A study of Rattus norvegicus with 4 samples.

Results

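A set of 9 genes was followed in 2 rat cartilages: Prg4, Cilp, Cilp2, Creb5, Erg, Crtac1, Clu, Snorc and Chad. They were listed for a known link to the joint surface, the zones of articular cartilage or chondrocytes, and not all are particular to joints. They were chosen by symbol among the 13554 genes of the deposited count table. All 9 were found, and all 9 had enough reads to be tested. Articular cartilage covers bone ends within joints. Xiphoid cartilage lies at the free end of the breastbone and bears no joint surface. Each cartilage had 2 libraries of total RNA from Sprague-Dawley rats of 8 to 10 weeks, with no treatment named in the labels. The labels give neither the joint, the sex nor the animals behind a library. Every p-value thus rests on the spread between 2 libraries a cartilage, which the fit across all genes shares over genes. These libraries may share their source, and that spread may be purely technical.

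A joint surface is kept smooth by a thin superficial zone of chondrocytes that secrete lubricin, the product of Prg4. Below it lie a middle zone, where cartilage intermediate layer protein collects, and a deep zone next to mineralized cartilage and bone. Several transcription factors, among them Creb5 and Erg, are known for marking the cells that form and keep this surface. Cartilage outside joints is enclosed by a perichondrium, a sheath of fibroblast-like cells, and has no lubricated face.

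Levels are given as CPM, reads of a gene scaled to a common library total, after TMM scaling for library composition. They can be compared for 1 gene between libraries, but not between genes, because transcript lengths were not used. The libraries held 8394769 and 7785225 estimated reads for articular and 8434820 and 7351006 for xiphoid cartilage. The 8 chondrocyte markers checked were present in all libraries, with at least 3442 reads each over the articular and 2956 over the xiphoid pair. Together they took 12.36% and 10.45% of articular against 2.99% and 2.74% of xiphoid counts. Col2a1 made up most of these sums, and without it the shares were 2.07% and 1.88% of articular against 1.34% and 1.26% of xiphoid counts. Changes are articular over xiphoid on the log2 scale, with a standard error (SE) and, for the fold, a 95% interval. A gene was called at an adjusted p under 0.05 in the edgeR quasi-likelihood test, which called 49.5% of the 11202 genes tested, 25.0% as higher in articular and 24.5% as higher in xiphoid cartilage. Of the 8 chondrocyte markers, 5 were called as higher in articular cartilage. They were Col2a1 (log2 2.60), Hapln1 (2.10), Col9a1 (1.86), Col11a2 (0.87) and Acan (0.49). Comp was called on the xiphoid side (-0.49), and Sox9 and Matn3 were not called.

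Of the 9 genes, 6 were called as higher in articular cartilage, namely Prg4, Cilp, Creb5, Erg, Chad and Snorc, and 2, Clu and Crtac1, as higher in xiphoid cartilage. Cilp2 was not called. The changes ran from 137-fold higher in articular cartilage for Prg4 to 7.86-fold higher in xiphoid cartilage for Clu. The median log2 change was 0.90 over the 9 genes and -0.017 over all genes tested. The 2 articular libraries lay apart from the 2 xiphoid libraries for all 9 genes, as they did for 74.9% of the genes tested.

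**Figure D1:**
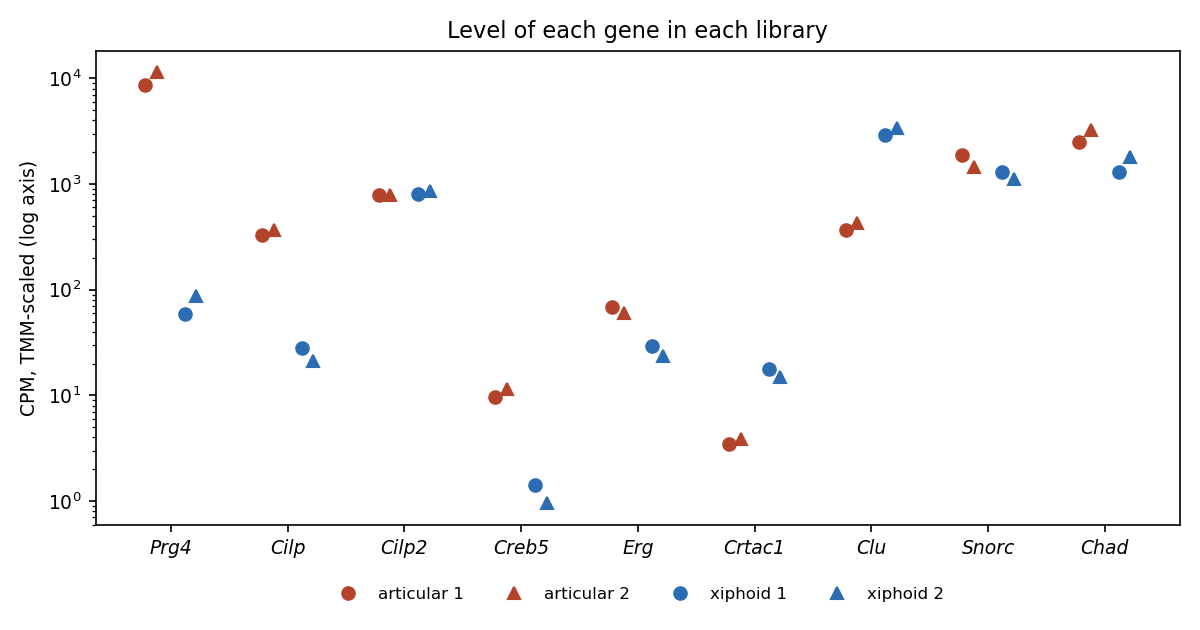
CPM of each of the 9 genes (log axis) in the 2 articular (red) and 2 xiphoid (blue) libraries, with circles for replicate 1 and triangles for replicate 2. Prg4 sits at 8721 and 11391.5 CPM in articular against 59.1 and 87.4 CPM in xiphoid libraries, while the 4 points of Cilp2 lie between 785 and 851 CPM.

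The promoters of 5 of these genes are shown. They are those of Prg4, with the greatest change of the 9, of Creb5, the factor tied to Prg4, and of Chad, with a modest change. The relatives Cilp and Cilp2, of which only Cilp was called, complete the set. No gene called as higher in xiphoid cartilage is among the 5. RefSeq gave promoters for 7 of the 9 genes on build GRCr8, each running from 250 bases before to 50 bases after the gene's start, and those of Clu and Snorc are named only. Capitals mark TATAAA, or TGACG, the core of the cyclic AMP response element, on either strand.

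Prg4, chr13:65054176-65054475, minus strand: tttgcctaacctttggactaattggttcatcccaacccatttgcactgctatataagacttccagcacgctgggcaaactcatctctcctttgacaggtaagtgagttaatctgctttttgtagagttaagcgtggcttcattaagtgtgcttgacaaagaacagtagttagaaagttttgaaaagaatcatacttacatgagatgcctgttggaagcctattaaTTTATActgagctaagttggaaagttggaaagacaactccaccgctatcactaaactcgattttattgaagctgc

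Creb5, chr4:83723975-83724274, plus strand: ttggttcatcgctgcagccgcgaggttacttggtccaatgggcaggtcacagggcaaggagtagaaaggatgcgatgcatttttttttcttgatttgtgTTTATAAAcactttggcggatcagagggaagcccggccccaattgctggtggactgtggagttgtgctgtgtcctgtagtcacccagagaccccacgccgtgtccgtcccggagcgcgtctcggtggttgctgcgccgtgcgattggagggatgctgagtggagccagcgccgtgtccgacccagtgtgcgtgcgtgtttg

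Cilp, chr8:74672198-74672497, plus strand: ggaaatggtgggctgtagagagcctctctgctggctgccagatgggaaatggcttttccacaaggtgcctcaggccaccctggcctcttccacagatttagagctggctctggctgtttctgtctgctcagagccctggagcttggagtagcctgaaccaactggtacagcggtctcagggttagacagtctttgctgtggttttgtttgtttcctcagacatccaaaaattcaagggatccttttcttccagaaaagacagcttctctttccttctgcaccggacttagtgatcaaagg

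Cilp2, chr16:19573857-19574156, plus strand: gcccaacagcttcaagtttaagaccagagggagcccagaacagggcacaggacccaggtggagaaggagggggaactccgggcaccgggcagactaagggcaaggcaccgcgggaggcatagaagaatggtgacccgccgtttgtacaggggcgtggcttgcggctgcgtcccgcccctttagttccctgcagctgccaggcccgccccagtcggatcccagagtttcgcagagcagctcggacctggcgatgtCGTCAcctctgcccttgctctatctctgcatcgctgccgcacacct

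Chad, chr10:80008795-80009094, plus strand: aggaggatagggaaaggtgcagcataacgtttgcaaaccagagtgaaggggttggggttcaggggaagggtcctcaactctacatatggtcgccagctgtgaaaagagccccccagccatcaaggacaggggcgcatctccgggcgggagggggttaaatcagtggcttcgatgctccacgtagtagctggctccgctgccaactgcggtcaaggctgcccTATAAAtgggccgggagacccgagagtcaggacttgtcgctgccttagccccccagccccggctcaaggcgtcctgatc

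The letters TATAAA stood 29 bases before the start of Chad, on the gene's strand, and 25 bases before the start of Prg4, on the opposite strand. Crtac1, not printed, held them 62 bases before its start, and the Creb5 window held 2 matches that overlap on opposite strands, from 151 bases before. Of 33469 RefSeq promoters of this length, 14.2% held TATAAA on either strand. Among the 7 windows TGACG was found in that of Cilp2 only, on the opposite strand, starting 4 bases after the first transcribed base, against 21.2% of all promoters. The full element TGACGTCA (1.83% of all), the AP-1 site TGANTCA (7.33%) and the ETS letters CCGGAAGT (3.81%) were in none of the 7 windows. The SOX letters AACAAT, held by 11.7% of all promoters, were in that of Erg. The windows also differed in base composition. G and C made up 39.3% of the Prg4 window, 40% of that of Erg, 51.0% of that of Cilp, 57.7% of that of Creb5, 60.0% of that of Chad, 63.7% of that of Cilp2 and 74.7% of that of Crtac1, against a median of 51.7% over all promoters. These matches are descriptions of letters, and binding was not measured.

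Prg4 (Entrez gene 289104) encodes lubricin, the mucin-like glycoprotein that coats the joint surface and keeps opposing cartilages from sticking. Articular libraries held 72900 and 88691 reads of it, or 8721 and 11391.5 CPM, and xiphoid libraries 503 and 638 reads, or 59.1 and 87.4 CPM. Means were 10056 ± 1888 CPM in articular against 73.3 ± 20.0 CPM in xiphoid cartilage (SD, n = 2 each). Both articular libraries thus lay far above both xiphoid libraries, yet the transcript was still well detected in xiphoid cartilage. The change was 137-fold (95% interval 92.1 to 205; log2 7.10, SE 0.26, adjusted p = 1.1e-09). Among all genes tested, 1.51% changed by at least as much in either direction. Within each cartilage the libraries differed by 1.31-fold (articular) and 1.48-fold (xiphoid), with replicate 2 the higher in each, which is small beside the difference between the cartilages. In the RefSeq annotation the span of Prg4 overlaps that of Tpr, a nuclear pore gene, which was at 73.6 and 83.7 CPM in articular against 29.9 and 22.1 CPM in xiphoid libraries (log2 1.59, adjusted p = 2.03e-05). The Prg4 row pooled 6 transcripts, 5 of them assembled by the submitters' pipeline, so single isoforms were not measured.

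Prg4 is also made by the cells that line the synovium, and by tendon surfaces, so markers of these were read beside it. Of 5 other synovial lining markers, 2 were higher in articular (Htra4, log2 3.42, and Cd55, log2 1.32) and 1 in xiphoid cartilage (Clic5, log2 -2.28). Summed, they took 0.00273% and 0.00334% of articular and 0.00325% and 0.00341% of xiphoid counts, so these sums overlapped between the cartilages. The sums hide single markers that changed in opposite directions, and the part of synovial lining in the change of Prg4 was not tested. No marker of the list was at 0 in either cartilage. The call of Cd55 was lost without articular replicate 2 and without xiphoid replicate 1 (adjusted p 0.273 and 0.282). Of 5 tendon and ligament markers found, 4 were higher in xiphoid cartilage and 0 in articular cartilage, at 0.187% and 0.215% of articular against 0.426% and 0.483% of xiphoid counts, with none at 0. Fmod, which chondrocytes also express, made up most of that sum, and without it the shares were 0.00403% and 0.00421% of articular against 0.0455% and 0.0419% of xiphoid counts. Thbs4 made up most of what was left, and it is also counted among the joint and superficial zone genes below.

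Markers of bone and marrow moved with Prg4. All 8 erythroid markers found were higher in articular cartilage, at 0.442% and 0.403% of counts against 0.0331% and 0.0305% in xiphoid libraries. Among them, Epb42 lost its call without articular replicate 1 (adjusted p = 0.186), xiphoid replicate 1 (0.0922) or xiphoid replicate 2 (0.0681). Of 9 osteoblast and osteocyte markers, 8 were higher in articular cartilage, at 1.26% and 1.27% against 0.637% and 0.681% of xiphoid counts, and Phex and Sost had no xiphoid read. Col1a1, the marker not called, made up most of the xiphoid sum, and without it the shares were 0.706% and 0.676% of articular against 0.0357% and 0.0365% of xiphoid counts. Osteoclast markers, of which all 5 tested were higher in articular cartilage, took 0.192% and 0.201% of articular against 0.0152% and 0.0141% of xiphoid counts, and Calcr, Atp6v0d2 and Oscar had no xiphoid read. Neutrophil markers stood at 0.0179% and 0.0183% of articular against 0.00107% and 0.00127% of xiphoid counts, where Mpo, which was not called, made up most of the sum. Without Mpo the shares were 0.0165% and 0.0169% of articular against 1.3e-04% and 1.36e-05% of xiphoid counts. In that list 5 of 6 tested were higher in articular cartilage, and Elane, Camp and Ngp had no xiphoid read. All 4 B cell markers tested were higher in articular cartilage, at 0.00364% and 0.00273% of articular against 1.2e-05% and 0% of xiphoid counts, and Cd79b, Vpreb1, Igll1 and Pax5 had no xiphoid read. Macrophage markers took 0.0152% and 0.0151% of articular against 0.0121% and 0.0110% of xiphoid counts, with 2 of 8 higher in articular and 1, C1qc, in xiphoid cartilage, a call lost without xiphoid replicate 1 (adjusted p = 0.147). The part of these tissues in the changes of Prg4, Cilp, Creb5, Erg, Chad and Snorc was not tested. In bulk tissue, fewer cells of a type and less RNA per cell cannot be told apart.

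**Figure D2:**
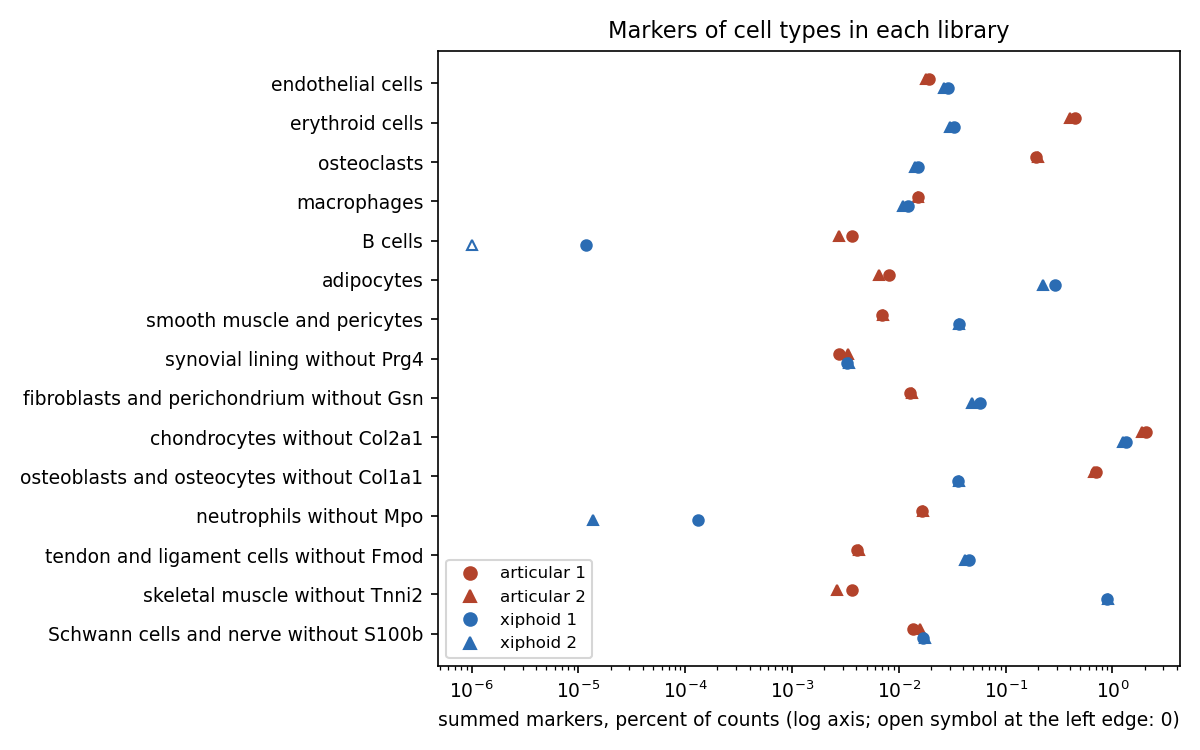
Summed markers of each cell type as a percent of all counts (log axis) in articular (red, above) and xiphoid (blue, below) libraries, circles for replicate 1 and triangles for replicate 2; an open symbol at the left edge is 0, and a gene that made up most of a list's sum is left out where its label says so. Erythroid, bone and marrow lists lie to the right in articular libraries, muscle, fat, tendon and fibroblast lists in xiphoid libraries, and the synovial list without Prg4 overlaps.

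Creb5 (Entrez gene 500131) encodes a CREB and ATF family transcription factor that, in bovine chondrocytes, is required for inducing Prg4. It was a low transcript, with 81 and 90.17 estimated reads in articular and 12 and 7.32 in xiphoid libraries. Levels were 9.69 and 11.6 CPM in articular against 1.41 and 0.959 CPM in xiphoid cartilage, so both articular values lay above both xiphoid values. The change was 8.76-fold (95% interval 5.01 to 15.3; log2 3.13, SE 0.37, adjusted p = 2.43e-05), and its interval was the widest of the 9 on the log2 scale. Of 16 relatives of the 9 genes listed, 10 were tested, with 5 called on the articular side, 1 on the xiphoid side and 4 not called (median log2 0.62). Among all genes tested, 49.5% were called. Atf2, a close relative of Creb5, was at 30.3 and 38.5 CPM in articular against 16.2 and 19.7 CPM in xiphoid cartilage (log2 0.94, adjusted p = 0.00233). Creb1 was at 9.93 and 7.19 CPM against 2.70 and 3.56 CPM in xiphoid cartilage (log2 1.46, adjusted p = 0.00345). Creb3l1, a membrane-bound factor of matrix-secreting cells, was also called (log2 0.79, adjusted p = 0.00143). Atf7 (log2 0.46, adjusted p = 0.0729), Creb3 (0.10, adjusted p = 0.619) and Creb3l2 (-0.094, adjusted p = 0.607) were not.

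Erg (Entrez gene 170909) encodes an ETS transcription factor of developing joints that endothelial cells also express. It was at 68.9 and 59.9 CPM in articular libraries and 29.0 and 23.6 CPM in xiphoid libraries. The cartilages did not overlap, and the change was 2.44-fold (95% interval 1.87 to 3.19; log2 1.29, SE 0.18, adjusted p = 7.77e-05). Of all genes tested, 23.5% changed by at least this much. Of 10 endothelial markers, Kdr was called on the articular side and 5 on the xiphoid side, and the sum was 0.0191% and 0.0179% of articular against 0.0286% and 0.0266% of xiphoid counts, with none at 0. The call of Kdr was lost without xiphoid replicate 2 (adjusted p = 0.239), and among the 5 that of Tek without articular replicate 2 or either xiphoid library and that of Egfl7 without xiphoid replicate 1. Fli1, the closest relative of Erg and also an endothelial gene, was at 11.5 and 8.99 CPM against 11.4 and 6.30 CPM in xiphoid cartilage (log2 0.20, adjusted p = 0.622). Ets1 and Ets2, other ETS genes, were called too. Ets1 was at 98.5 and 97.1 CPM against 42.0 and 42.1 CPM in xiphoid libraries (log2 1.22, adjusted p = 3.44e-05). Ets2, the next coding gene beside Erg in the RefSeq annotation, was at 48.6 and 47.9 CPM against 21.6 and 20.1 CPM (log2 1.21, adjusted p = 1.05e-04).

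Cilp and Cilp2 are relatives that parted. Cilp (Entrez gene 315761) encodes a protein of the middle zone of human articular cartilage that binds TGF-beta. It was at 332 and 368 CPM in articular and 28.1 and 21.4 CPM in xiphoid libraries, so the lower articular library was still well above the higher xiphoid library. The change was 14.1-fold (95% interval 10.7 to 18.6; log2 3.82, SE 0.18, adjusted p = 8.11e-09). Cilp2 (Entrez gene 306356) encodes a related cartilage matrix protein, and stood at 785 and 794 CPM in articular and 803 and 851 CPM in xiphoid libraries. The articular pair lay just below the xiphoid pair, and the gap was not called. The log2 change was -0.066 (SE 0.14, adjusted p = 0.734), with a 95% interval of the fold from 0.769 to 1.19.

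The number of Cilp reads per Cilp2 read does not depend on how libraries are scaled. It was 0.422 and 0.464 in articular libraries and 0.0350 and 0.0251 in xiphoid libraries. The mean log2 ratio thus differed by 3.90, or 14.9-fold, with no overlap. The exact permutation test (two-sided) gave p = 0.333, the smallest that 2 against 2 libraries allow. Tgfb1, whose protein Cilp binds, was higher in articular cartilage at 104 and 158 CPM against 52.2 and 78.1 CPM (log2 1.01, adjusted p = 0.00492). Of the insulin-like growth factor pair that Cilp is reported to dampen, the ligand Igf1 was at 11.4 and 16.8 CPM in articular against 65.0 and 64.9 CPM in xiphoid cartilage (log2 -2.21, adjusted p = 2.77e-06). Its receptor Igf1r went the other way, at 29.3 and 41.7 CPM in articular against 8.58 and 12.2 CPM in xiphoid cartilage (log2 1.78, adjusted p = 8.38e-05).

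Chad (Entrez gene 29195) encodes chondroadherin, a leucine-rich protein that links type II collagen to a chondrocyte integrin. It was at 2499 and 3270.3 CPM in articular and 1286 and 1807 CPM in xiphoid libraries. Replicate 2 was the higher in each cartilage, by 1.31-fold and 1.41-fold, yet the cartilages did not overlap. The change was 1.87-fold (95% interval 1.39 to 2.51; log2 0.90, SE 0.20, adjusted p = 0.00237), a size that 34.3% of all genes tested reached or passed. Its span overlaps that of Acsf2, a fatty acid activating enzyme, at 251 and 349.7 CPM in articular against 164 and 216 CPM in xiphoid libraries (log2 0.66, adjusted p = 0.0118). The integrin subunit Itgb1 was not called (log2 0.36, adjusted p = 0.0739).

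Snorc (Entrez gene 363276) encodes a small membrane proteoglycan of chondrocytes. Articular libraries held 1869.6 and 1446 CPM and xiphoid libraries 1311 and 1120.2 CPM. The lower articular and the higher xiphoid value lay close together. The change, 1.36-fold (95% interval 1.05 to 1.76; log2 0.45, SE 0.17), passed narrowly (adjusted p = 0.0454). Leaving out articular replicate 1 gave a log2 change of 0.25 and an adjusted p of 0.257, ending the call. Leaving out either xiphoid library ended it too, at 0.58 (adjusted p = 0.0778) for the first and 0.35 (adjusted p = 0.316) for the other. Sox9, the chondrocyte master factor, was at 197 and 231 CPM in articular against 161 and 217 CPM in xiphoid cartilage and was not called (log2 0.18, adjusted p = 0.415). Of 9 CREB, SOX and ETS genes of chondrocytes, 4 were called on the articular side, 0 on the xiphoid side, and 5 were not called (median log2 0.36, with 49.5% of all genes tested called). Among the 4, Sox5 (log2 0.60, adjusted p = 0.0237) lost its call without articular replicate 2 (0.164) and without xiphoid replicate 1 (0.151).

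**Figure D3:**
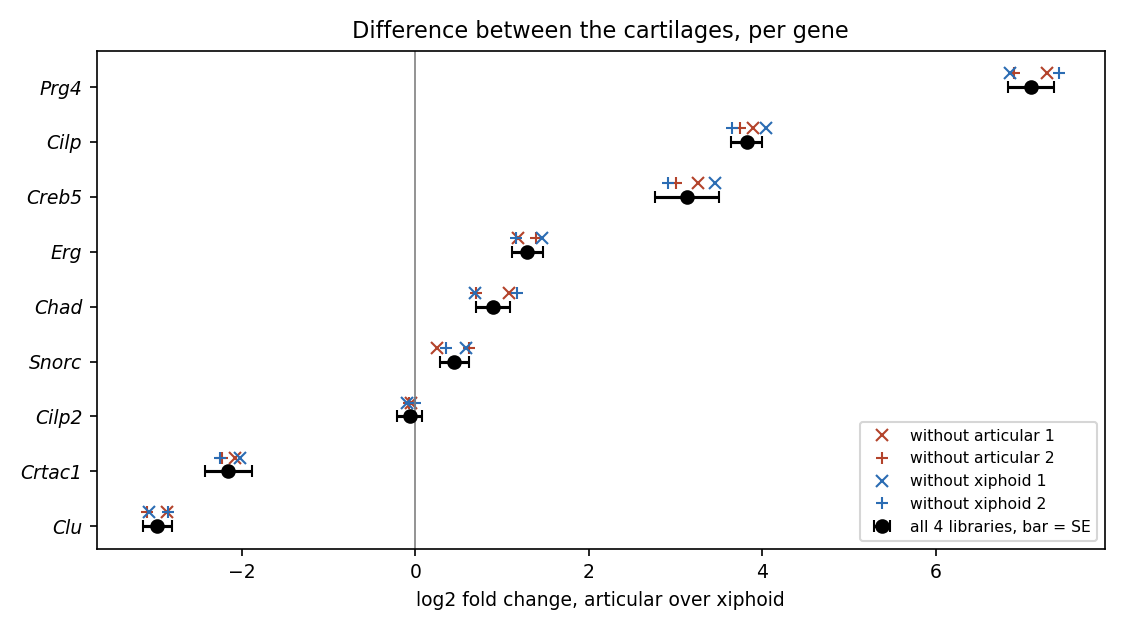
Log2 change of each gene, articular over xiphoid, with all 4 libraries (black, bar = SE) and with each library left out (crosses, red for an articular and blue for a xiphoid library). Prg4 lies at 7.10 and Clu at -2.98, and Snorc moves between 0.25 and 0.62 with the library left out.

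Clu and Crtac1 ran the other way. Clu (Entrez gene 24854) encodes clusterin, a secreted chaperone that many tissues make and that is known from the superficial zone of young articular cartilage. It was at 365 and 427 CPM in articular and 2878 and 3352 CPM in xiphoid libraries. The xiphoid pair thus lay far above the articular pair, and clusterin was 7.86-fold higher in xiphoid cartilage (log2 -2.98, 95% interval -3.35 to -2.60, SE 0.17, adjusted p = 4.67e-08). Of all genes tested, 7.06% changed by at least this much. The span of Clu overlaps that of Scara3, a scavenger receptor gene, which was also higher in xiphoid cartilage, at 112 and 109 CPM in articular against 547 and 569.9 CPM in xiphoid libraries (log2 -2.33, adjusted p = 9.74e-08). Vldlr, a receptor that takes up clusterin, was higher in articular cartilage, at 109 and 131 CPM against 20.3 and 19.9 CPM (log2 2.57, adjusted p = 1.57e-07).

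Crtac1 (Entrez gene 171438) encodes cartilage acidic protein, a matrix protein used to tell human chondrocytes from bone cells in culture. It was a low transcript with 29 and 30 reads in articular and 150 and 110 reads in xiphoid libraries, or 3.47 and 3.85 CPM against 17.6 and 15.1 CPM. All articular values lay below all xiphoid values, and the transcript was 4.46-fold higher in xiphoid cartilage (log2 -2.16, 95% interval -2.75 to -1.57, SE 0.27, adjusted p = 3.99e-05). Its binding partner Rtn4r, the Nogo receptor, was not called (log2 0.41, adjusted p = 0.426).

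Markers of fibroblasts, muscle and fat moved with Clu and Crtac1. Of 7 fibroblast and perichondrium markers found, 5 were higher in xiphoid cartilage, at 0.0477% and 0.0470% of articular against 1.46% and 1.31% of xiphoid counts. Without Gsn these shares were 0.0126% and 0.0132% against 0.0581% and 0.0489%, and no marker was at 0. Dpp4 was called as higher in articular cartilage, a call lost without articular replicate 2 (adjusted p = 0.207) or xiphoid replicate 2 (0.109), and among the 5 Cd34 lost its call without xiphoid replicate 2 (0.0681). Skeletal muscle markers, 9 of 10 of them higher in xiphoid cartilage, took 0.0304% and 0.0237% of articular against 0.910% and 0.930% of xiphoid counts, with none at 0. Tnni2, the marker not called, made up most of the articular sum, and without it the shares were 0.00367% and 0.00263% of articular against 0.884% and 0.907% of xiphoid counts. Adipocyte markers took 0.00812% and 0.00655% of articular against 0.292% and 0.225% of xiphoid counts, all 7 found were higher in xiphoid cartilage, and Lep had no articular read. Of 7 smooth muscle and pericyte markers, 6 were higher in xiphoid cartilage, at 0.00691% and 0.00705% of articular against 0.0367% and 0.0369% of xiphoid counts. The other, Rgs5, was called on the articular side (log2 0.97, adjusted p = 0.0400), a call lost whichever library was left out (adjusted p from 0.0532 to 0.187). Schwann cell and nerve markers took 0.0483% and 0.0559% of articular against 0.163% and 0.168% of xiphoid counts, with 3 of 6 tested higher in xiphoid cartilage. S100b, which chondrocytes also express, made up most of that sum, and without it the shares were 0.0135% and 0.0158% of articular against 0.0167% and 0.0178% of xiphoid counts. Their part in the changes of Clu and Crtac1 was not tested.

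Set against aggrecan (Acan), the main cartilage proteoglycan, the genes fell into those that kept apart between cartilages and those that did not. This split holds for Acan only, and ratios to other chondrocyte markers were not taken. Col2a1 (log2 2.60), Hapln1 (2.10) and Col9a1 (1.86) changed more than Erg (1.29), Chad (0.90) and Snorc (0.45). Comp (-0.49), Sox9 (0.18) and Matn3 (0.25) changed less than Erg and Chad or the other way. Prg4 reached 1.03 and 1.46 reads per Acan read in articular and 0.00997 and 0.0155 in xiphoid libraries, a 99.0-fold difference of the mean log2 ratios. Clu stood at 0.0433 and 0.0547 against 0.485 and 0.593 reads per Acan read in xiphoid libraries, and was 11.0-fold higher there. Cilp2 stood at 0.0932 and 0.102 against 0.135 and 0.151 in xiphoid libraries, and was 1.47-fold higher there. Snorc overlapped, at 0.222 and 0.185 in articular and 0.221 and 0.198 in xiphoid libraries (exact permutation p = 1.000, two-sided), and so did Chad, at 0.297 and 0.419 against 0.217 and 0.3199 (exact permutation p = 0.667, two-sided). Cilp, Creb5, Erg and Crtac1 kept the directions given above without overlap, each at the smallest exact p of 0.333, as did Prg4, Clu and Cilp2. These 9 ratios and that of Cilp to Cilp2 make 10 such comparisons, and none can pass at this number of libraries. Acan itself was called as higher in articular cartilage (log2 0.49, adjusted p = 0.019). It lost the call when articular replicate 1, xiphoid replicate 1 or xiphoid replicate 2 was left out, with log2 changes of 0.43, 0.53 and 0.46 in that order.

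**Figure D4:**
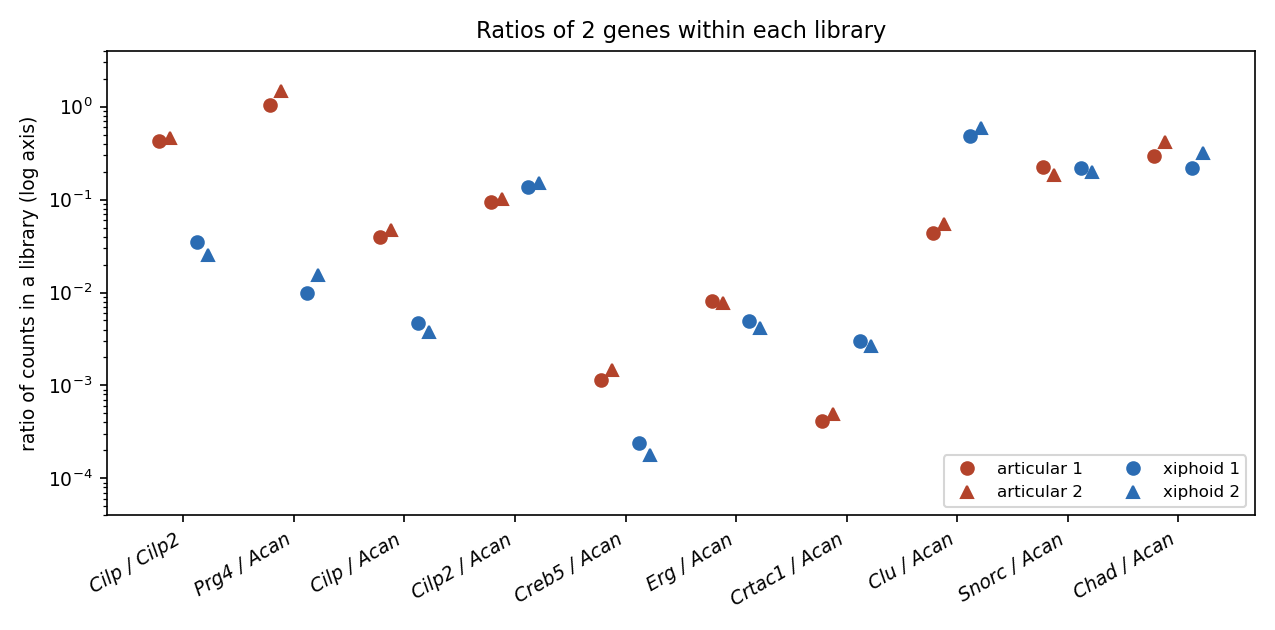
Reads of a gene per read of another gene in the same library (log axis): Cilp per Cilp2, then each of the 9 genes per Acan, articular libraries in red and xiphoid in blue, circles for replicate 1 and triangles for replicate 2. Cilp per Cilp2 is 0.422 and 0.464 in articular against 0.0350 and 0.0251 in xiphoid libraries, and the points of Snorc and Chad per Acan overlap between the cartilages.

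Other genes of joints and of the superficial zone went both ways too. Of 30 listed, 23 were matched and 21 tested. The articular side had 8 called genes, the xiphoid side had 6, and 7 were not called, with a median log2 change of 0.0021 against -0.017 over all genes tested. Among all genes tested, 49.5% were called. Barx1, a homeobox gene of developing limb joints, had 2507 reads in articular against 4 in xiphoid cartilage, or 159 and 151 CPM against 0 and 0.548 CPM (log2 9.17, adjusted p = 3.02e-09). Its log2 change was 8.11 without xiphoid replicate 1. Leaving out xiphoid replicate 2 left no xiphoid read, and the fitted 13.32 is then no bound. Chrdl2, a BMP antagonist of cartilage, was 10.6-fold higher in articular cartilage (31.1 and 40.8 CPM against 2.47 and 4.38 CPM, adjusted p = 1.25e-06).

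On the xiphoid side stood Osr1, an odd-skipped factor of connective tissue and joints, at 1.32 and 2.18 CPM in articular against 53.9 and 63.6 CPM in xiphoid cartilage (a 33.5-fold excess in xiphoid cartilage, adjusted p = 1.98e-08). Its relative Osr2 went the other way, at 5.14 and 6.94 CPM in articular against 0.706 and 0.411 CPM in xiphoid cartilage (log2 3.37, adjusted p = 1.57e-04). The thrombospondin gene Thbs4 was at 32.7 and 34.4 CPM in articular against 369 and 338 CPM in xiphoid cartilage (log2 -3.40, adjusted p = 6.81e-09). The metalloproteinase inhibitor Timp4 (5.75-fold), the Wnt modulator Dkk3 (6.89-fold), the hyaluronan-binding Tnfaip6 (6.99-fold) and Tppp3, a tubulin-binding marker of tendon sheath and synovium (3.11-fold), were called as higher in xiphoid cartilage as well (adjusted p from 4.64e-08 to 5.59e-05). Frzb, a Wnt inhibitor of articular chondrocytes, was at 3545 and 4509.8 CPM in articular against 3584 and 4459.9 CPM in xiphoid cartilage and was not called (log2 0.0021, adjusted p = 0.993). Has2, which makes the hyaluronan of the joint, was 2.89-fold higher in articular cartilage (31.2 and 40.5 CPM against 11.4 and 13.4 CPM, adjusted p = 8.62e-05).

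**Figure D5:**
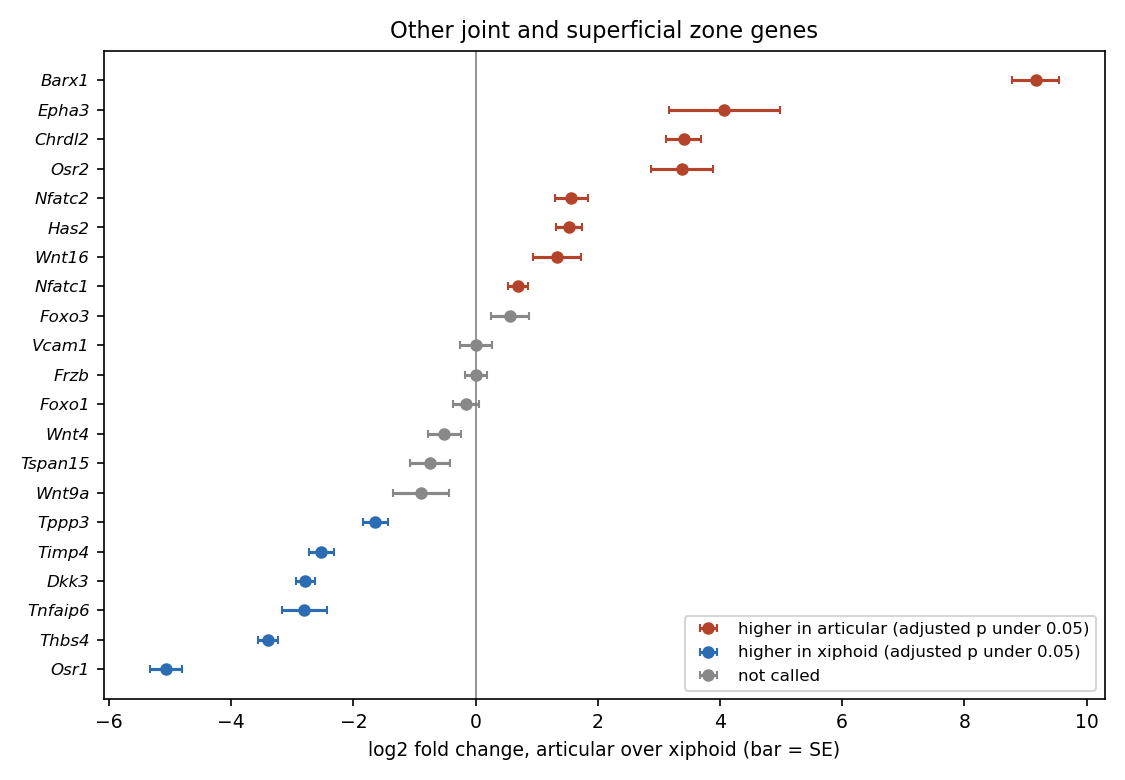
Log2 change, articular over xiphoid, of the 21 other tested joint and superficial zone genes, with bars for the SE; red and blue mark genes called as higher in articular and in xiphoid cartilage, grey those not called. The changes run from -5.07 for Osr1 to 9.17 for Barx1, with 8 red, 6 blue and 7 grey points.

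Receptors, partners and processing enzymes of the 9 proteins were listed as well: of 21, 18 were matched and 16 tested, with 5 called on the articular side, 2 on the xiphoid side and 9 not called (median log2 0.32). Among all genes tested, 49.5% were called. Cd44, a lubricin receptor, was at 27.8 and 29.9 CPM in articular against 20.6 and 27.4 CPM in xiphoid cartilage and was not called (adjusted p = 0.284). Tlr2 (5.14 and 3.98 CPM against 2.12 and 2.47 CPM, adjusted p = 0.0562) and Tlr4 (log2 0.15, adjusted p = 0.768), innate receptors that lubricin binds, were not called either. Of the proprotein convertases, which cleave lubricin and other secreted proteins, Pcsk6 was 3.32-fold higher in articular cartilage (511 and 541 CPM against 160.3 and 156 CPM, adjusted p = 1.21e-06). Furin was not called (log2 -0.15, adjusted p = 0.439). Pcsk5, at 27.8 and 26.2 CPM in articular against 42.6 and 40.1 CPM in xiphoid cartilage, was called on the xiphoid side (adjusted p = 0.00967), a call lost without xiphoid replicate 1 (0.0988). Ctsg, a neutrophil protease that cuts lubricin, had 118 reads in articular and none in xiphoid cartilage, and so was at least 38.5-fold higher against a floor of 3 reads over both xiphoid libraries, with the neutrophil markers above moving the same way.

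Among genes that mark deep cartilage or cartilage outside joints, all 17 listed were tested, with 10 called on the articular side, 5 on the xiphoid side and 2 not called (median log2 1.86). Of all genes tested, 49.5% were called. The 5 on the xiphoid side were Matn1, Ucma, Cnmd, Cytl1 and Chrd. Cytl1, a secreted protein of chondrocytes, had the lowest adjusted p of them, at 495 and 445 CPM in articular against 20832 and 21656 CPM in xiphoid libraries (a 45.2-fold excess in xiphoid cartilage, adjusted p = 5.33e-10). The articular side held genes of mineralizing cartilage such as Ihh (log2 7.35), Mmp13 (8.98, or 9.79 without xiphoid replicate 1), Ibsp (7.87), Alpl (6.93) and Sp7 (5.46), which were higher in the same libraries as Prg4. The rest of the 10 were Runx2 (log2 2.98) and the matrix genes Epyc (3.72), Hapln1 (2.10), Col9a1 (1.86) and Col11a1 (1.63). Ibsp and Sp7 are bone cell markers too, counted in the osteoblast list above, and the bone and marrow lists were higher in these libraries as well, so mineralizing cartilage and bone cannot be told apart here. The matrilins Matn3 (log2 0.25, adjusted p = 0.2502) and Matn4 (log2 -0.35, adjusted p = 0.190) were not called, while Matn1, of tracheal and other cartilage outside joints, was at 39.2 and 38.3 CPM in articular against 302 and 349 CPM in xiphoid libraries (log2 -3.07, adjusted p = 1.80e-08).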

How the data were processed

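The authors deposited 1 table of expected counts, that is, estimated reads per gene that need not be whole, unscaled, with 1 column per library, per the file headers. The submitters' processing notes name RSEM 1.2.12, Bowtie2 2.2.6, StringTie 1.2.1 and HISAT2 2.0.4 and the rn6 assembly, without saying what each was used for. No source here states whether strand was used in counting, so overlapping genes may share reads. Of the values, 3.91% were not whole, and all were rounded. Symbols came from the table, and 13482 of 13554 identifiers matched the RefSeq table of GRCr8, used for names, neighbours and promoters only.

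Genes were filtered with filterByExpr (11202 tested, 2352 not), scaled by TMM and tested with the edgeR 4.0.16 quasi-likelihood test (robust, R 4.3.3) for articular against xiphoid cartilage, with Benjamini-Hochberg adjustment over all genes tested. The fit had 2 residual degrees of freedom. To these it added prior degrees of freedom, with a median of 10.0, drawn from the spread over all genes. SE is the log2 change over the square root of F, and intervals use the t distribution on the residual and prior degrees of freedom together. All p-values are two-sided. Genes named beside the 9 were, in each of 4 lists, up to 8 of lowest adjusted p and any whose call differed from most of its list, and the 3 nearest in pattern to Prg4, Clu and Creb5, of which 1 is not reported here. Osr2, Has2, Frzb, Cd44, Tlr4, Furin, Itgb1, Rtn4r, Fli1, Creb3, Sox5, Sox9, single cell type markers and the genes that overlap or neighbour the 9 were named after their values were seen. So were Runx2, Epyc, Hapln1, Col9a1 and Col11a1. Marker sums without 1 dominating gene were added likewise. The 9 genes and all lists were chosen with earlier results of these data known. The procedure was tested on simulated counts. Counting floors cover counting error only. Alternatives were other scalings (RLE, upper-quartile, none), other low-count filters, DESeq2 1.42.0, limma-voom 3.58.1, glmTreat, a replicate block, fits without Col2a1, ribosomal RNA or other cell markers, and leaving out each library. Leave-one-out values of the Cilp to Cilp2 ratio were added after seeing the data.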

Additional observations from a re-analysis of the deposited data

How the results depend on the processing

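Over the 16 alternatives, Prg4, Cilp, Creb5, Erg, Clu and Crtac1 kept their direction and their call in each, and Cilp2 was called in none. The log2 change ranged from 6.85 to 7.42 for Prg4, 3.65 to 4.04 for Cilp, 2.91 to 3.46 for Creb5, 1.16 to 1.46 for Erg, -2.25 to -2.03 for Crtac1, -3.09 to -2.85 for Clu, 0.68 to 1.18 for Chad and -0.099 to -0.011 for Cilp2. Snorc lost its call in 4 alternatives and Chad in 1, both under glmTreat against a fold of 1.5 (adjusted p 0.861 for Snorc and 0.0651 for Chad), which asks for a change beyond that fold. The other 3 for Snorc left out a library. The glmTreat test called 1686 genes as higher in articular and 1538 as higher in xiphoid cartilage, against 2799 and 2745. With a mean of at least 5 CPM required, 5 rather than 8 joint and superficial zone genes were higher in articular cartilage, since fewer genes were tested. With the replicate number as a block, 3344 and 3484 genes were called, with 6 and 2 of the 9 genes and 9 and 8 of the joint and superficial zone genes as higher in articular and in xiphoid cartilage. Across genes, the difference of replicate 1 minus 2 correlated between the cartilages (r = 0.24), but 2 pairs do not show that the numbers pair the samples. Leaving out 1 library gave 3.66 to 4.14 for the difference between cartilages in the mean log2 ratio of Cilp to Cilp2. In the gene fits that left out 1 library, the lone library is assumed to vary like the other cartilage. For Prg4, Cilp, Creb5, Clu and Crtac1, the p-values of these fits were smaller than with all libraries, though the fits held fewer data. A call kept in these fits is thus no added support, and only their log2 changes should be read. Scalings moved the median of all genes by at most 0.047. With 2 libraries a cartilage, the fits rest on 2 residual degrees of freedom and on a spread borrowed from all genes. Creb5 and Crtac1 also rest on few reads.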

Other observations

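The genes nearest in pattern to Prg4, Clu and Creb5 were sought over the 4 libraries of 2 tissues. Nearness was measured as the distance of log2 CPM after centring each gene on its mean. The 3 nearest to Prg4 were Alpl, the mineralization phosphatase (distance 0.479, log2 change 6.93), Prkg2, a cyclic GMP dependent kinase (0.615, 6.92), and Np4, a neutrophil defensin (0.705) with no read in xiphoid cartilage. The fitted log2 change of Np4 was 11.3, against 7.10 for Prg4, and is no bound. With no xiphoid read, its distance depends on the small count added before taking logs. Among the nearest to Clu were Cyp2u1, a cytochrome P450 (0.0967, -2.96), and Tmem98, a membrane protein (0.111, -2.90). Creb5 was nearest to Syt12, a synaptotagmin (0.145, 3.03), Egln3, an oxygen-sensing prolyl hydroxylase (0.156, 3.10), and the haemoglobin chain Hba-a1 (0.2185, 3.26).

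Of the nearest coding genes on either side of the 9 in the RefSeq annotation, 9 were tested, of which 5 were called on the articular side, 1 on the xiphoid side and 3 were not called. Among all genes tested, 25.0% were called on the articular and 24.5% on the xiphoid side. Beside Prg4, Hmcn1, a hemicentin gene, was at 8.25 and 11.4 CPM in articular against 2.94 and 1.78 CPM in xiphoid cartilage (log2 2.03, adjusted p = 5.39e-04). Beside Cilp, Parp16 was called (log2 0.81, adjusted p = 0.0026) and Clpx was not (log2 0.25, adjusted p = 0.323). Tril beside Creb5 went against it, at 9.33 and 10.1 CPM in articular against 20.1 and 18.9 CPM in xiphoid cartilage (adjusted p = 0.00229). Ngef beside Snorc (log2 0.58, adjusted p = 0.00588) and Lrrc59 beside Chad (log2 0.46, adjusted p = 0.0187) were called on the articular side, as was Ets2 beside Erg. Rsad1 beside Chad (adjusted p = 0.871) and Ccdc25 beside Clu (adjusted p = 0.429) were not called.

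Vtn, which encodes vitronectin and shares domains with lubricin, had 6 reads in articular and 78 in xiphoid cartilage (log2 -3.67, adjusted p = 3.02e-04). Its log2 change was -5.09 without articular replicate 1 and -3.01 without articular replicate 2.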
